A study of Solanum tuberosum with 72 samples.

Results

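Roots of potato seedlings kept at 35 °C for 9 h were compared with roots of seedlings given no stress for the same time. The comparison rests on 6 of the 72 arrays in the series, 3 hybridised with heat-stressed roots and 3 with a further sample of unstressed roots, and all spots with a value were used. Of 32448 spots, 20111 had a value on at least 1 of the 6 arrays and 13995 on all of them. Each clone was printed at 2 spots, which were averaged into 1 value called a probe here. Of 10382 probes with a value on any of the 6 arrays, 8906 had a value on at least 2 arrays of each group and were tested, and 1476 were not.

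All plants were potato seedlings (Solanum tuberosum, variety Gilroy) raised from true seed and 5 weeks old, floating on hydroponic medium at 25 °C with 16 h of light and 8 h of dark. For heat, the medium was replaced with medium warmed beforehand to 35 °C and the boxes stood in a water bath at that temperature. Control boxes also received fresh medium, so a change of medium was common to both groups. Each query sample held roots of 6 plants from 2 boxes, and the experiment was run 3 times independently. The spotted complementary DNA array measures a ratio of 2 RNAs. The query, dyed with Cy3, was the stressed or the further unstressed root sample, and the reference, dyed with Cy5, was root RNA of control plants of the same time pooled from 6 boxes. Dyes were not swapped, and 1 control sample served each time point. Every value is therefore a log2 ratio of query to reference, and every difference is the mean log2 ratio on the heat arrays minus that on the no-stress arrays. Positive differences likely mean higher in heat. The direction rests on the labels' naming of the channels, since titles name the control first. Ratios give no transcript level, so the tissue could not be checked against its markers, and fewer cells of a type cannot be told apart from less RNA per cell.

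As background, plant cells meet high temperature with heat-shock transcription factors that switch on genes of chaperones, the proteins that keep other proteins folded. Heat also raises respiration and the load of reactive oxygen, which the ascorbate system helps to remove, and it alters the balance between starch, sugars and their use in glycolysis. Roots depend on sugar imported from the shoot, and cultivated potato is a cool-season crop.

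The heat arrays were alike over probes but did not respond equally. Their pairwise Pearson correlations over probes were 0.672, 0.632 and 0.694, against 0.67, 0.368 and 0.362 among the no-stress arrays. Values were present for 8948 to 9889 probes an array. The spread of log2 ratios was widest on heat replicate 1, with an SD over probes of 0.491, and lay between 0.267 and 0.368 on the other 5 arrays. Markers of green shoot tissue, the other tissue a root sample could hold, also stood apart on that array. Over cab1, psbP, PSBO, PSBR, TPT, FBPase and GCVT the median log2 ratio was -0.985 on heat replicate 1, 0.021 on heat replicate 2 and -0.069 on heat replicate 3. On the no-stress arrays it was 0.0775, 0.107 and -0.169. These medians covered 19 probes on heat replicates 1 and 3 but 13 on heat replicate 2, where the only cab1 value was -0.453. FBPase is a weak marker, since the gene printed here encodes a cytosolic enzyme. Without it, a choice made after the values were seen, the medians were -0.973, 0.155 and -0.028 under heat. Without stress they were 0.0355, 0.032 and -0.183. Heat replicate 2 then had 11 probes and the other heat arrays 17. Named genes whose calls depend on heat replicate 1 or another array are given below with the adjusted p without it.

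Heat changed 518 of 8906 probes (5.82%) at a Benjamini-Hochberg adjusted p under 0.05 in limma's moderated test, 330 of them higher (3.71%) and 188 lower (2.11%). The median difference over all tested probes was -0.0013. Large shifts were few: 56 called probes were over 1 on the log2 scale, 42 were under -1, 16 were over 2 and 3 were under -2. The smallest called difference had a size of 0.317. Among the called probes, the heat and no-stress arrays did not overlap in 508, against 31.7% of all tested probes. Probes that rose had median log2 ratios of 0.684, 0.406 and 0.459 on heat replicates 1, 2 and 3, and of -0.151, -0.121 and -0.128 on the no-stress arrays. Probes that fell had medians of -0.538, -0.425 and -0.501 under heat and of 0.226, 0.199 and 0.143 without stress. Heat replicate 1 held the most extreme heat value for 245 of the 330 higher and 100 of the 188 lower probes.

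As a background, the no-stress arrays alone differed from 0 in 297 of 9063 probes (3.28%), and the heat arrays alone in 1838 of 9488 (19.4%). The number of calls depended on that array more than on any other single one. Without heat replicate 1, 138 probes were called. Of the 518, 512 could still be tested, and 136 stayed below the threshold. All 512 kept their sign. Where the groups do not overlap, as in nearly all of them, this follows from the separation and is no measure of stability. Without no-stress replicate 1 the count was 261 and without no-stress replicate 2 it was 316. A core of 105 probes, 68 higher and 37 lower, was called whichever of the 6 arrays was left out. In data simulated at this size, arrays were independent and each probe had 1 spread on all of them. There, 28.8% of probes changed by 0.5 were recovered, 85.1% of those changed by 1 and 100% of those changed by 2. Modest changes were thus often below detection in such data. The wider spread of heat replicate 1 was not simulated.

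**Figure D1:**
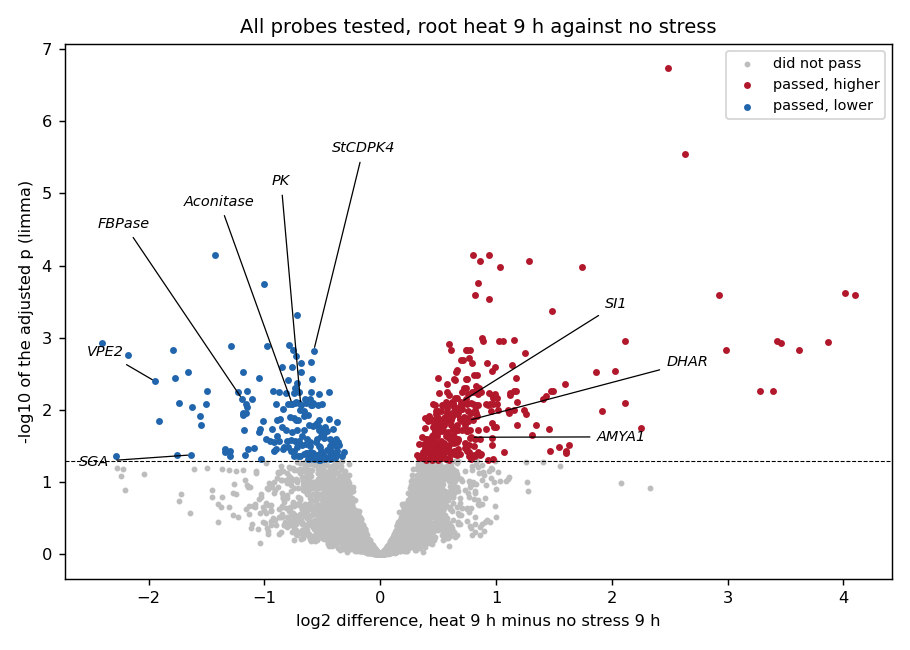
Each point is 1 of the 8906 tested probes. The horizontal axis gives the log2 difference (heat minus no stress, roots at 9 h). The vertical axis gives the limma adjusted p on a negative log scale. The dashed line marks an adjusted p of 0.05. The 330 higher and 188 lower calls lie above it, and the points farthest to the right are clones without a gene name.

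Most responding clones had no annotation. Of the called probes, 459 were unannotated (5.64% of 8143 tested), 26 carried only a locus number (6.37% of 408), 3 carried several symbols, and 30 carried a gene name (10% of 299 tested). The 299 named probes came from 180 genes, and 58 further named probes could not be tested. In all, 25 named genes had a called probe, 9 higher and 16 lower. The lists below group the named genes by function, and a gene stands for the clone with its largest difference unless another is given. Each list count is to be set against the shares over all tested probes, 3.71% higher and 2.11% lower. No list was tested as a set.

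In starch breakdown, 2 of 6 tested probes rose and none fell, and the median of the list was 0.53. AMYA1, an alpha-amylase that cuts starch chains internally, read 0.44, 0.45 and 0.31 on the heat arrays and -0.66, -0.23 and -0.27 on the no-stress arrays. All 3 heat values lay above all no-stress values, and the difference was 0.78 (SE 0.21, 1.72-fold, limma adjusted p 0.0238). The disproportionating enzyme dpeP, which rearranges short glucan chains, read 0.05, 0.43 and 0.21 under heat and -0.56, -0.38 and -0.26 without stress. Its groups also did not overlap, and it rose by 0.62 (SE 0.15, adjusted p 0.0111), while its other probe had 0.51 and did not pass. R1, the glucan water dikinase, had -0.02 and -0.08, STP-1 had 0.55 and glgP, a glucan phosphorylase gene outside the lists, had 0.15, and none of these passed. The AMYA1 call failed when heat replicate 1, heat replicate 2 or no-stress replicate 1 was dropped (0.101, 0.0633 and 0.133). For dpeP the adjusted p was 0.0607 with heat replicate 2 left out and 0.0671 with no-stress replicate 1 left out. Its no-stress arrays, with a mean of -0.40, supplied more of its gap than its heat arrays, with 0.23.

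Starch synthesis genes moved in both directions, 1 of 6 tested probes higher and 1 lower. SS2, a starch synthase that lengthens glucan chains, read 0.18, 0.07 and -0.07 on the heat arrays and -0.69, -0.93 and -0.44 on the no-stress arrays. It rose by 0.75 (SE 0.19, 1.68-fold, adjusted p 0.0187), with no overlap. A further probe of it at 0.53 passed only with the replicate number as a block (adjusted p 0.0293). Set against 0, the SS2 heat arrays averaged 0.06 and were not called (limma adjusted p 0.789). The no-stress arrays supplied most of its gap. The small subunit of ADP-glucose pyrophosphorylase encoded by agpS3, part of the enzyme that makes the glucosyl donor for starch, went the other way. It read -1.17, -0.67 and -0.58 under heat and 0.01, 0.03 and -0.22 without stress, and fell by 0.75 (SE 0.22, 1.68-fold, adjusted p 0.0365). Another small-subunit gene, agpS2, had a difference of -0.01, and granule-bound starch synthase GBSS had -0.24, neither passing. Dropping heat replicate 1, no-stress replicate 1 or no-stress replicate 2 ended the SS2 call (0.107, 0.0612 and 0.107), and dropping the same 3 arrays ended that of agpS3 (0.229, 0.118 and 0.116). The branching enzyme SBE1 read 1.72 on heat replicate 1 but 0.29 and 0.16 on the other heat arrays, and its difference of 0.63 did not pass (adjusted p 0.337). In sucrose and hexose metabolism none of 5 tested probes passed. The apoplastic invertases InvCD111 and InvCD141 had -0.54 and -0.56, and the 2 tested probes of the sucrose synthase sus4 had 0.51 and 0.43.

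Of 9 tested glycolysis probes 3 fell and none rose, with a list median of -0.62, and the 3 belonged to GAPDH and PK. The list covered 3 genes, and 6 of its tested probes were clones of GAPDH, so its median describes mainly that gene. GAPDH, the glyceraldehyde-3-phosphate dehydrogenase, read -0.54, -0.65 and -0.59 on the heat arrays and 0.13, 0.15 and 0.10 on the no-stress arrays. The arrays within each group were close together and the groups well apart, with a difference of -0.72 (SE 0.19, 1.65-fold, adjusted p 0.0189). A second clone of GAPDH fell by 0.64 (SE 0.18, adjusted p 0.0285), and 4 further tested clones between -0.67 and -0.10 did not pass. One of the 4, at -0.62, passed with the replicate number as a block (adjusted p 0.0375). Pyruvate kinase PK, which makes pyruvate in the last step, read -0.90, -0.45 and -0.74 against -0.01, 0.05 and -0.07. It fell by 0.69 (SE 0.16, 1.61-fold, adjusted p 0.00859). The 2 probes of glucose-6-phosphate isomerase GPI, in the upper pathway, had 0.36 and 0.24 and did not pass. PGAM, a phosphoglycerate mutase gene outside the list, had 0.03 and 0.24 in its 2 clones, also not passing. LDH-2, a lactate dehydrogenase that regenerates NAD in fermentation, belongs to no list and was named after its values were seen. It read -0.55, -0.31 and -0.45 under heat and 0.22, 0.00 and -0.12 without stress, a fall of 0.47 (SE 0.14, adjusted p 0.0461) that lost the call with the replicate number as a block (0.0502).

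These calls were sensitive to single arrays. PK lost its call without heat replicate 1 (adjusted p 0.0819). GAPDH lost its call without any 1 of 5 arrays: 0.0667, 0.0568 and 0.0507 without heat replicates 1, 2 and 3, and 0.0619 and 0.0604 without no-stress replicates 1 and 2. LDH-2 failed when heat replicate 1 or 3 was dropped (0.194 and 0.108) and when no-stress replicate 1 or 2 was (0.205 and 0.0944).

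In the photosynthesis and photorespiration list 2 of 24 tested probes fell and none rose, against 5.82% of all tested probes called. Both belonged to FBPase. This gene, with the synonym cy-F1, encodes the cytosolic fructose-1,6-bisphosphatase, which acts in sucrose synthesis and gluconeogenesis. FBPase read -0.99, -0.31 and -0.59 on the heat arrays and 0.30, 0.93 and 0.45 on the no-stress arrays. The groups did not overlap, and it fell by 1.19 (SE 0.26, 2.28-fold, adjusted p 0.00712). Its second probe fell by 1.11 (SE 0.24, adjusted p 0.00712). Both calls were lost without heat replicate 1 (adjusted p 0.0691 and 0.0717), where the first clone still had a difference of -1.01.

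The other members of that list, which did not pass, were lowest on heat replicate 1 in most cases. The 4 probes of cab1, a chlorophyll a/b-binding protein of the light-harvesting antenna, read between -2.19 and -1.89 on heat replicate 1, between -0.775 and -0.286 on heat replicate 3, and between -0.184 and 0.151 on the no-stress arrays. Only 1 of the 4 had a value on heat replicate 2, at -0.453, so every heat value was below the no-stress values. Differences between -1.40 and -0.90 did not pass (adjusted p 0.303 for the clone that stands for the gene). PSBO, of the oxygen-evolving complex, had -0.83 and -0.59, and SHMT, a serine hydroxymethyltransferase, the kind of enzyme that acts in mitochondria in photorespiration, had -0.68, also not passing. The 6 probes of the photosystem II protein PSBR lay between -0.24 and 0.19. Over the whole list, 19 of 24 probes were below 0 with a median of -0.453, and the array medians were -0.979, 0.0248 and -0.148 under heat and 0.0775, 0.233 and -0.135 without stress. The median on heat replicate 2 leaves out the probes without a value there. Whether roots of heat replicate 1 held less green tissue than their reference was not tested.

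**Figure D2:**
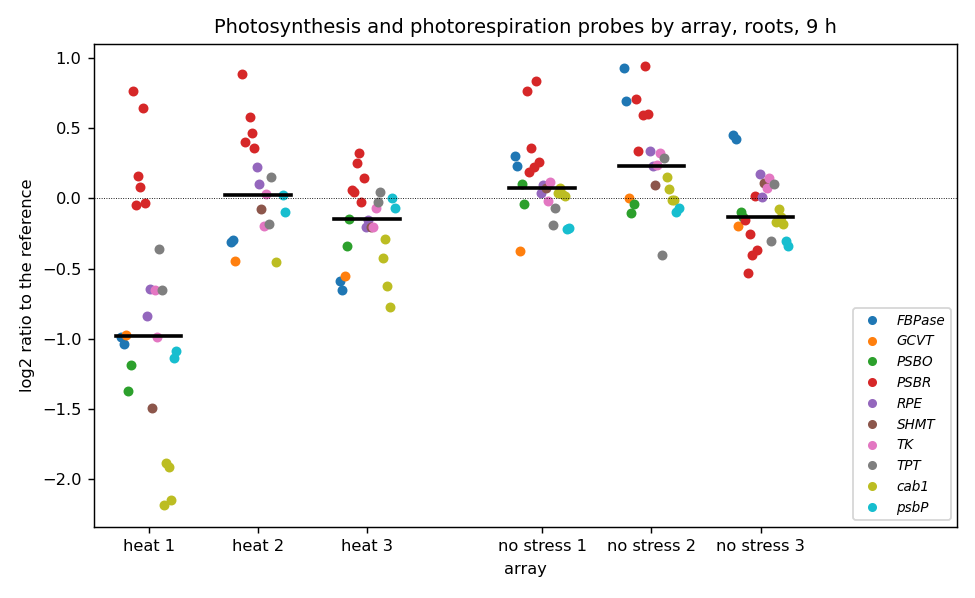
Log2 ratios of the 24 tested probes of the photosynthesis and photorespiration list on each of the 6 arrays (horizontal axis), with points coloured by gene and a black line at the array's median. Heat replicate 1 has a median of -0.979, whereas the medians of the other 5 arrays lie between -0.148 and 0.233. Some probes, most of cab1 among them, have no value on heat replicate 2.

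Among antioxidant enzymes, 2 of 6 tested probes rose and none fell, and both encode dehydroascorbate reductases, which regenerate ascorbate from its oxidised form. DHAR read 0.63, 0.16 and 0.57 on the heat arrays and -0.14, -0.58 and -0.21 on the no-stress arrays. The lowest heat value was above the highest no-stress value, and the difference was 0.76 (SE 0.19, 1.69-fold, adjusted p 0.014). A second clone of DHAR had 0.11 and did not pass. One clone of DHAR2 read 0.38, 0.29 and 0.43 under heat and -0.33, -0.25 and -0.09 without stress, a rise of 0.59 (SE 0.17, 1.51-fold, adjusted p 0.0365). The other DHAR2 clone had the larger difference of 0.66 but missed the threshold (SE 0.21, adjusted p 0.0547), and passed with the replicate number as a block (0.0276). The 2 tested probes of the catalase CAT1 had -1.16 and 0.08, did not pass, and differed in sign.

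Both reductase calls rested on several arrays. DHAR failed when heat replicate 1, heat replicate 3 or no-stress replicate 2 was dropped (0.101, 0.0587 and 0.091). The called DHAR2 clone lost it without any array other than no-stress replicate 3 (0.12, 0.0556 and 0.105 without heat replicates 1, 2 and 3, and 0.133 and 0.102 without no-stress replicates 1 and 2).

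Of 17 tested mitochondrial probes, 1 rose and 1 fell, against 5.82% of all tested probes called, and the list median was -0.165. Aconitase, the enzyme of the tricarboxylic acid cycle that isomerises citrate, read -0.50, -0.25 and -0.59 on the heat arrays and 0.29, 0.45 and 0.20 on the no-stress arrays. It fell by 0.76 (SE 0.17, 1.69-fold, adjusted p 0.00831) with no overlap between groups, although a second clone had -0.12 and did not pass. TYKY2, a subunit of respiratory complex I, read 0.55, 0.24 and 0.28 against -0.15, -0.08 and -0.14. It rose by 0.48 (SE 0.12, 1.39-fold, adjusted p 0.0189). The pyruvate dehydrogenase subunit PDHE1-A and the ADP/ATP carriers AAC and ant had differences between -0.43 and 0.04, none passing. The uncoupling protein UCP had -0.36 and -0.31, also not passing. Aconitase missed the threshold once heat replicate 1 was dropped (adjusted p 0.0514). TYKY2 missed it when heat replicate 1 (0.153) or no-stress replicate 1 or 3 (0.0666 and 0.0549) was dropped.

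The methionine and polyamine list had 1 higher and 1 lower probe among 18, against 5.82% of all tested probes called. ARD, the acireductone dioxygenase of methionine salvage, read 0.87, 0.41 and 0.19 under heat and -0.30, -0.07 and -0.31 without stress, and rose by 0.72 (SE 0.17, 1.65-fold, adjusted p 0.0124). Methionine synthase MS, the last step of methionine production, read -0.98, -1.06 and -1.10 on the heat arrays and -0.40, -0.51 and 0.15 on the no-stress arrays. It fell by 0.80 (SE 0.23, 1.74-fold, adjusted p 0.0327), and its 2 other tested probes had -0.74 and -0.57 and did not pass, the first of them passing with the replicate block (0.0342). None of the 8 tested probes of SAMDC, the decarboxylase that commits S-adenosylmethionine to polyamines, passed, with differences between -0.44 and 0.13. The ARD call ended when replicate 1 of either group was dropped (0.134 for heat and 0.0555 for no stress). MS lost its call without every array except no-stress replicate 2 (0.0974, 0.0712 and 0.0904 without heat replicates 1, 2 and 3, and 0.0581 and 0.176 without no-stress replicates 1 and 3).

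No heat-shock protein could be followed by name, because the annotation gives no product names and no such gene symbol matched. The chaperone list held only Lea, which encodes a late embryogenesis abundant protein of the kind that accumulates in drying cells, and dnaJ, a co-chaperone of Hsp70. Of its 5 tested probes 2 fell and none rose. Lea read -0.17, -0.10 and -0.56 on the heat arrays and 0.94, 0.48 and 0.31 on the no-stress arrays. The groups did not overlap, and the fall was 0.85 (SE 0.22, 1.8-fold, adjusted p 0.0172). The no-stress arrays of Lea, with a mean of 0.58, supplied more of this gap than the heat arrays, with -0.28. Set against 0, the heat arrays were not called (limma adjusted p 0.215). One clone of dnaJ read 0.10, 0.04 and -0.04 against 0.46, 0.47 and 0.29. It fell by 0.37 (SE 0.11, 1.3-fold, adjusted p 0.0421). Here the no-stress arrays lay above their reference and the heat arrays near it, so that the heat arrays set against 0 had the opposite sign at 0.035. The other 3 tested dnaJ clones, between -0.14 and 0.09, did not pass. None of 10 probes of the 2 cyclophilin genes, prolyl isomerases that help folding, passed, with differences between -0.72 and 0.06. Dropping heat replicate 1, heat replicate 3 or no-stress replicate 1 ended the Lea call (0.0559, 0.0959 and 0.125). The dnaJ call failed without any array other than no-stress replicate 3 (0.0981, 0.082 and 0.139 without heat replicates 1, 2 and 3, and 0.137 and 0.135 without no-stress replicates 1 and 2).

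Among protein kinases and phosphatases 2 of 15 tested probes fell and none rose, against 5.82% of all tested probes called. StCDPK4, a calcium-dependent protein kinase, read -0.69, -0.53 and -0.40 on the heat arrays and 0.02, 0.08 and 0.01 on the no-stress arrays. It had the narrowest error of the called kinases, with a fall of 0.57 (SE 0.10, 1.49-fold, adjusted p 0.00151), and was called whichever array was left out (highest adjusted p 0.0238). PKIN1, of the SnRK1 family of energy-sensing kinases, read -0.15, -0.11 and -0.34 against 0.23, 0.35 and 0.34. Its groups did not overlap either, and it fell by 0.51 (SE 0.15, 1.42-fold, adjusted p 0.0461), but the call was lost whichever 1 of the 6 arrays was left out (0.0628 to 0.166). The no-stress arrays, with a mean of 0.31, supplied more of the PKIN1 gap than the heat arrays, with -0.20. The protein phosphatase StP2C had 0.02.

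The 14-3-3 protein 16R, which belongs to a family that binds phosphorylated proteins, read -0.66, -0.60 and -0.88 under heat and 0.14, 0.33 and 0.21 without stress. It fell by 0.94 (SE 0.24, 1.92-fold, adjusted p 0.0184). A second clone at -0.53 and the related 30G at -0.37 did not pass, so 1 of 3 tested probes of the family was lower. The call of 16R ended when heat replicate 1, heat replicate 3 or no-stress replicate 2 was dropped (0.0691, 0.074 and 0.0709).

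No member of 9 lists passed, 71 tested probes in all, against 5.82% of all tested probes called. These lists cover transcription regulators, hormone response, defence and storage proteins, translation, cell wall, phenylpropanoids, membrane transport, cyclophilins and sucrose metabolism. Several members separated the groups without passing, which by itself says little, since the groups did not overlap in 31.7% of all tested probes. NAC2, a NAC transcription factor, read -0.32, -0.09 and -0.37 under heat and 0.68, 0.64 and 0.45 without stress, a difference of -0.85 (SE 0.34, adjusted p 0.141). IAA2, an Aux/IAA repressor of auxin response, read 0.02, -0.14 and -0.08 against 0.45, 0.43 and 0.40, a difference of -0.49 (adjusted p 0.115). The potassium channel SKT3 had 0.59 (SE 0.18, adjusted p 0.0541), which passed with the replicate block (0.0336). The storage protein gene pat1 had -0.84 (adjusted p 0.276) and the chitinase ChtA1 had -0.37, both with overlapping groups. In these lists the flavonol synthase FLS had 0.57, the translation factor eIF5A5 had 0.41 and the UDP-glucose epimerase STUGE51 had -0.46. The groups also overlapped in FLS and eIF5A5. CO, a CONSTANS-type regulator, had -0.11.

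VPE2 and SGA had the largest falls among the named genes. VPE2 encodes a vacuolar processing enzyme, a cysteine protease that matures vacuolar proteins. It read -0.92, -1.09 and -2.12 on the heat arrays and 1.28, 0.54 and -0.12 on the no-stress arrays. Every heat value was below every no-stress value although both groups spread widely, and it fell by 1.94 (SE 0.38, 3.84-fold, adjusted p 0.00403). The call held whichever array was left out (highest adjusted p 0.0333). Fitted on the 6 arrays alone it missed the threshold (0.0511).

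SGA, with the synonym Sgt3, is a glycosyltransferase of glycoalkaloid synthesis, the route to the bitter steroidal alkaloids of potato. It read -1.34, -1.14 and 0.28 under heat and 0.79, 0.38 and 1.52 without stress. Heat replicate 3 lay only just below the lowest no-stress array, and the fall was 1.63 (SE 0.48, 3.1-fold, adjusted p 0.0418). Its second probe had -1.45 and did not pass. It was no longer called with heat replicate 1 or 2 dropped (0.212 and 0.126) or with no-stress replicate 1 or 3 dropped (0.0928 and 0.168). StSSR1, a sterol side chain reductase of sterol synthesis, moved the other way. It read 0.55, 0.14 and 0.70 against -0.38, -0.64 and 0.18, and it is the 1 called named gene whose groups overlapped. It rose by 0.74 (SE 0.19, 1.68-fold, adjusted p 0.0189). The call ended with heat replicate 1 or 3 dropped (0.0997 and 0.1) and with no-stress replicate 1 or 2 dropped (0.0775 and 0.133). The similarly named StSSR2, which the naming rule did not pick, had differences between -0.87 and -0.49 in its 3 tested clones, none passing.

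Of the remaining called genes, SI1 rose in all 3 of its tested clones, by 0.70, 0.69 and 0.63. The first read 0.89, 0.50 and 0.61 on the heat arrays and -0.13, -0.12 and 0.16 on the no-stress arrays (SE 0.16, 1.62-fold, adjusted p 0.00776). SRE1A fell in 2 of its 3 clones, and the first read -0.33, -0.33 and -0.12 against 0.15, 0.45 and 0.18 (difference -0.52, SE 0.16, adjusted p 0.0484). StEBP1, the potato homologue of the ErbB-3 binding protein known for its part in organ growth, read -0.25, -0.51 and -0.21 against 0.29, 0.41 and 0.19. It fell by 0.62 (SE 0.15, 1.54-fold, adjusted p 0.0116), with 2 further clones at -0.51 and -0.29 not passing. Without heat replicate 1 the first SI1 clone had an adjusted p of 0.0736. The SRE1A call was lost whichever array was left out (0.0584 to 0.193). For StEBP1 the call ended when replicate 2 of either group was dropped (0.0608 for heat and 0.0572 for no stress).

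Of the 24 named genes called by the clone with their largest difference, 8 higher and 16 lower, the groups did not overlap in 23. The same held for 508 of the 518 called probes and for 31.7% of all tested, so non-overlap adds little to a call. Only 2 of the 24 genes, VPE2 and StCDPK4, were called whichever array was left out. Without heat replicate 1, 4 were called, dpeP and StEBP1 being the others.

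**Figure D3:**
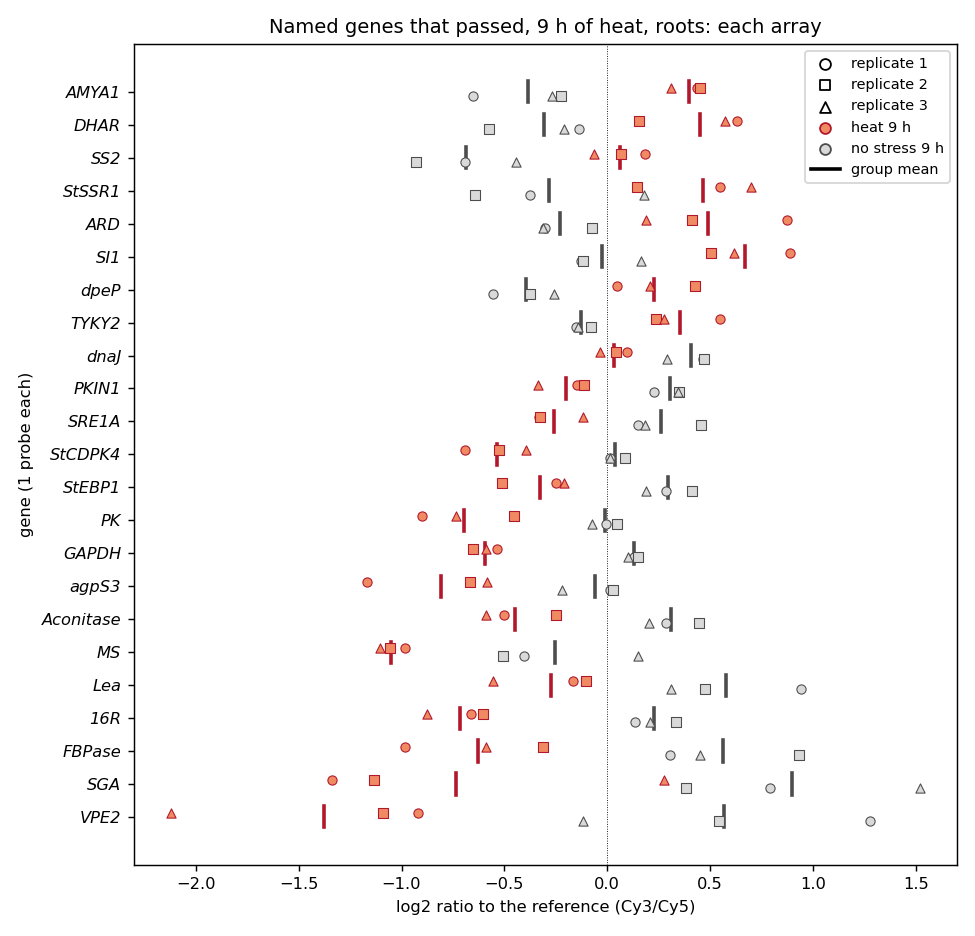
Log2 ratios of 23 called named genes (vertical axis) on the 3 heat arrays (orange) and the 3 no-stress arrays (grey) of roots at 9 h, with circles, squares and triangles for replicates 1, 2 and 3 and bars at the group means. VPE2, with heat values from -2.12 to -0.92, and SGA lie farthest apart at the lower end, and AMYA1, with heat values from 0.31 to 0.45, leads the higher genes.

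The clones with the largest rises had no annotation. All 16 called probes with a difference over 2 belonged to this class, with differences from 2.03 to 4.10. Clone 156920 read 5.78, 3.11 and 2.39 on the heat arrays and -0.23, -0.05 and -0.74 on the no-stress arrays, a rise of 4.10 (SE 0.59, 17.1-fold, adjusted p 0.000257). Clone 139797 read 5.56, 2.81 and 3.04 against -0.17, -0.10 and -0.38, a rise of 4.01 (SE 0.60, 16.2-fold, adjusted p 0.000241). In both, heat replicate 1 was far above the other heat arrays, and all 3 heat arrays were far above the no-stress arrays. Over the 16 clones the median log2 ratio was 4.33 on heat replicate 1, 2.42 on replicate 2 and 2.25 on replicate 3. Heat replicate 1 was the highest heat array in 14 of the 15 with 3 heat values. The highest no-stress value among them was 0.744, and 13 of the 16 were called whichever array was left out. Clone 147949 lost its call without heat replicate 1 (adjusted p 0.064), clone 137497 lost its own without heat replicate 1, no-stress replicate 1 or no-stress replicate 3 (0.195, 0.0612 and 0.0514), and 134025 could not be tested without heat replicate 2 or 3. These clones were picked for their rise, so their size is a description.

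The lowest p-value of the comparison belonged to clone 158999, which differed from that pattern in the evenness of its heat arrays. It read 2.24, 1.5 and 1.94 under heat and -0.76, -0.25 and -0.76 without stress, a rise of 2.49 (SE 0.23, 5.6-fold, adjusted p 1.86e-07). Among unannotated clones that fell, 161691 read -0.86, -1.60 and -2.81 against 1.07, 1.09 and -0.23, a fall of 2.40 (SE 0.42, 5.28-fold, adjusted p 0.00117) called whichever array was left out. Clone 131250 read -1.37, -1.06 and -0.49 against 1.18, 0.80 and 1.95, and fell by 2.28 (SE 0.68, adjusted p 0.0427). That call was lost whichever array was left out, with an adjusted p of 0.171 without heat replicate 1.

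**Figure D4:**
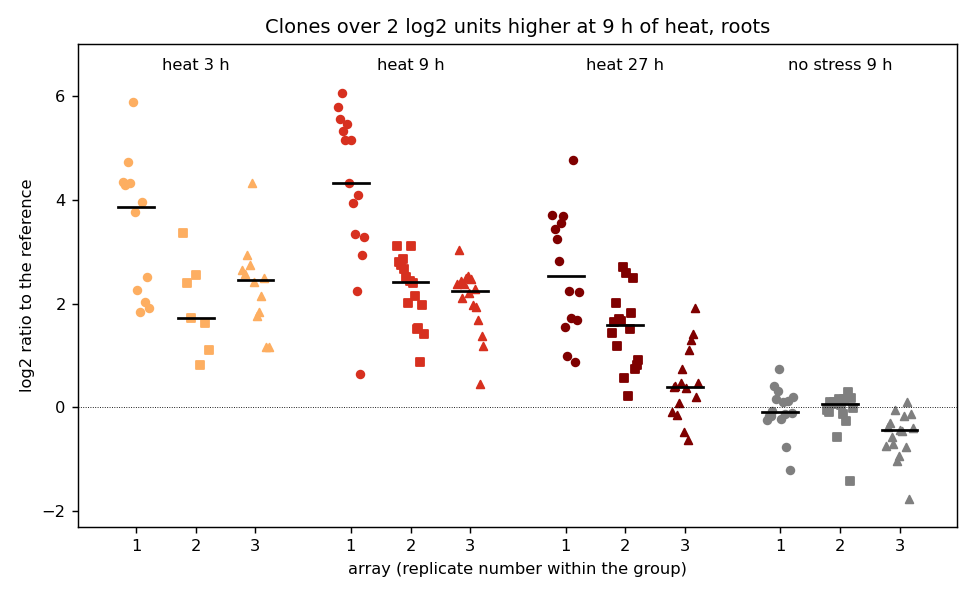
Log2 ratios (vertical axis) of the 16 unannotated clones with a called rise over 2 in roots at 9 h, on the heat arrays at 3, 9 and 27 h and the no-stress arrays at 9 h, with lines at the medians. At 9 h the heat arrays have medians of 4.33, 2.42 and 2.25, and every no-stress value is at or below 0.744.

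Genes known only by a locus number gave 26 called probes of 16 genes, 7 of them with at least 2 called probes. The examples here were chosen after their values were seen. LOC102590882 rose in all 3 tested clones by 0.71, 0.70 and 0.62, LOC102600759 in all 3 by 0.54, 0.51 and 0.46, and LOC102601464 in both by 0.74 and 0.62. LOC102589825 rose in 3 of 4 clones, by 0.60, 0.55 and 0.48, and the fourth had -0.31 and did not pass. Clones carrying the symbol LOC102587499 disagreed more sharply: 2 of 9 rose, by 1.87 (SE 0.36, adjusted p 0.00302) and 1.46, another had 1.26 and did not pass, and the other 6 lay between -0.67 and -0.35, none passing. The clone with 1.87 read 0.09, 0.18 and 1.02 under heat and -1.60, -1.56 and -1.15 without stress, so the no-stress arrays supplied most of the gap. LOC102602308 fell by 1.30 in 1 of 4 clones, and the others had -2.27, -2.23 and -2.22 without passing, although 2 of these passed with the replicate block (adjusted p 0.0432 and 0.0467).

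Most of these locus-number calls rested on heat replicate 1. Of the 26 called probes, 25 could be tested without that array and 4 were then called. The clones of LOC102600759 had adjusted p of 0.0907, 0.0721 and 0.112 without it, in the order given above, and those of LOC102589825 had 0.0934, 0.134 and 0.135. The LOC102590882 clones had 0.0459, 0.0632 and 0.113, and the LOC102601464 clones 0.0459 and 0.152. The LOC102587499 clone with 1.87 was called whichever array was left out, and the clone with 1.46 had 0.0504 without heat replicate 1 and 0.1 without heat replicate 3. For LOC102602308 the called clone had 0.163. Other arrays ended further calls: without no-stress replicate 1 the weakest clone of LOC102590882 had 0.176, of LOC102600759 0.073, of LOC102601464 0.147 and of LOC102589825 0.0619.

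Heat at 3 h and 27 h, each with its own no-stress arrays, was compared with heat at 9 h. At 3 h 651 of 8974 probes were called (7.25%, with 3.86% higher) and at 27 h 1795 of 8975 (20%, with 10.1% higher). Of the 9 h calls, 198 of the 507 tested at 3 h were called there in the same direction, which is 39.1% of them and 30.4% of the 3 h calls. At 27 h it was 331 of 515, which is 64.3% of them and 18.4% of the 27 h calls. No probe was called in opposite directions at either time, and the sign was the same for 482 of 507 at 3 h and 496 of 515 at 27 h. The median of the probes that rose was 0.665 at 9 h, 0.431 at 3 h and 0.60 at 27 h, and that of the probes that fell was -0.704, -0.446 and -0.56.

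Tests of the difference between times found almost nothing past the threshold. Between the 9 h and 3 h effects 0 of 8637 probes were called by limma (528 at an unadjusted p under 0.05), although with array weights 15 were. Between 9 h and 27 h 3 of 8658 were called (0.0347%, and 803 at an unadjusted p under 0.05), all unannotated. That count was 13 without heat replicate 1 and 6 without heat replicate 3. A call at one time and not at another therefore does not show a difference in response.

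Values of the named genes at the 3 times lay as follows. VPE2 fell at each time, by 2.40 at 3 h, 1.94 at 9 h and 2.03 at 27 h, and so did StCDPK4, by 0.45, 0.57 and 0.37. The agpS3 clone fell by 0.95, 0.75 and 1.56. AMYA1 had -0.03 at 3 h, 0.78 at 9 h and 1.15 at 27 h, the latter pair called. SI1 had 0.32, 0.70 and 1.08 and SGA had -1.07, -1.63 and -2.67, both called at 9 h and 27 h. 16R had -0.01, -0.94 and -1.07, called at the same times. PK had -0.32, -0.69 and -0.29 and Aconitase had -0.03, -0.76 and -0.08, called at 9 h alone of the 3 times. GAPDH, with -0.64, -0.72 and -0.47, was called at 3 h and 9 h. None of these differences between times passed a test of its own. Of the 24 called named genes, 4 were called in the same direction at 3 h and 16 at 27 h, and the sign was the same for 22 and 23.

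Of the 16 clones with the largest rises, those that could be tested at 3 h were already high there. Of these 11, 10 were called higher, and their median was 2.96. The median over all 16 at 9 h was 3.13. That set includes clones without a test at 3 h, such as 156920 with a rise of 4.10, so these medians cannot be ranked. At 27 h the median over all 16 was 1.01, 5 were called higher, and the difference was smaller than at 9 h in all 16. Since the clones were selected at 9 h, smaller values at other times are a description, and none of the 16 passed the test of the 9 h against the 27 h effect.

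Leaves of seedlings given heat for 9 h responded less by count, with 17 of 9448 probes called (0.18%, with 0.148% higher). Of the root calls, 11 of the 513 tested in leaf were called there in the same direction, which is 2.14% of them and 64.7% of the leaf calls, and 465 had the same sign. Among the named genes, Lea fell in both tissues, by 0.85 in root and by 1.31 in leaf (SE 0.24, adjusted p 0.0151). VPE2 had -1.23 in leaf, agpS3 -0.69, FBPase -0.50 and AMYA1 0.30, and SGA had 0.12. The median of the root probes that rose was 0.257 in leaf, and that of those that fell was -0.242. A direct test of root against leaf effects called 2 of 8556 probes (0.0234%, and 446 at an unadjusted p under 0.05), both unannotated and higher in root. The count was 0 with heat replicate 1 or no-stress replicate 3 dropped, 1 with no-stress replicate 1 or 2 dropped, and 6 with heat replicate 2 or 3 dropped.

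**Figure D5:**
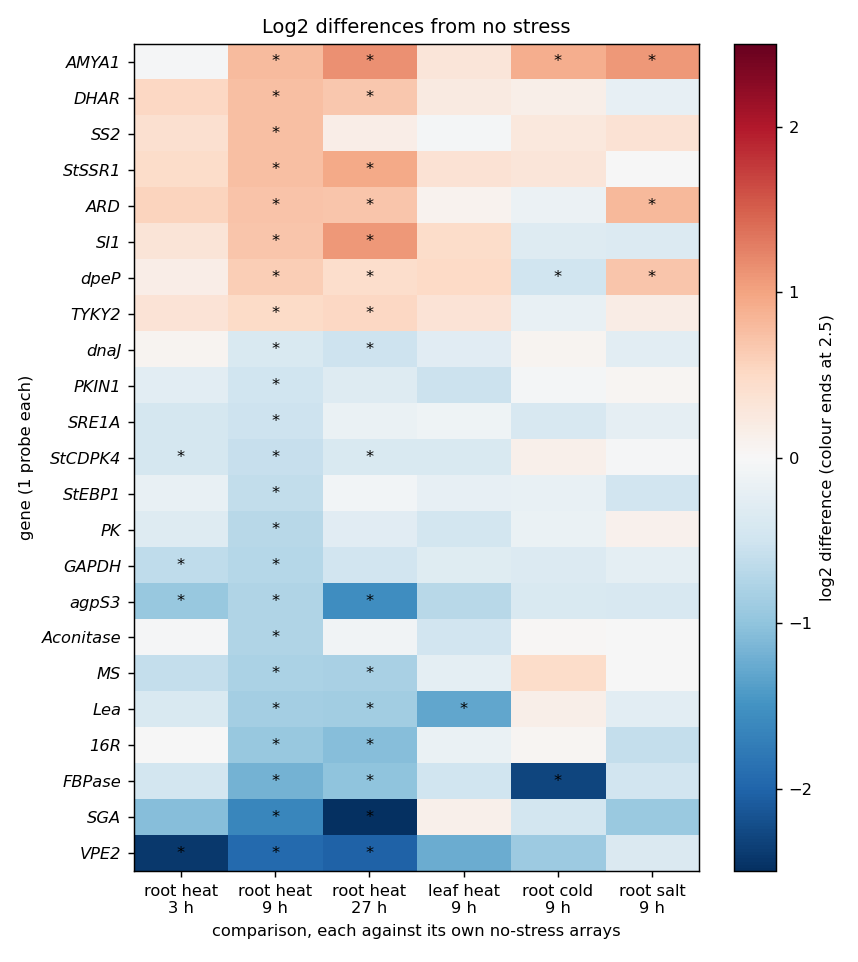
Log2 differences from no stress of 23 named genes called in roots after 9 h of heat, in root heat at 3, 9 and 27 h, leaf heat at 9 h, root cold at 9 h and root salt at 9 h. Asterisks mark an adjusted p under 0.05 and the colour scale ends at 2.5. The root columns at 9 h share their no-stress arrays. VPE2 is low in the 3 root heat columns, with -2.40, -1.94 and -2.03, and AMYA1 is called higher under cold and salt as well as heat.

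Heat arrays were also compared directly with the root arrays of cold (4 °C) and salt at 9 h. Between heat and cold 3208 of 9020 probes were called (35.6%), 1613 higher (17.9%) and 1595 lower (17.7%) in heat. Between heat and salt 1189 of 8881 were called (13.4%), 550 higher (6.19%) and 639 lower (7.2%) in heat, a count of 673 without heat replicate 1 and 756 without heat replicate 3. The 3 stresses share the no-stress arrays, so their differences from no stress are set side by side and not counted as overlap. Against no stress, 26.3% of probes were called in cold and 4.37% in salt.

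Some heat-responsive genes stood apart from both other stresses. SI1 had 0.70 under heat, -0.32 under cold and -0.34 under salt, and was higher in heat than in cold by 1.02 (adjusted p 7.75e-06) and than in salt by 1.03 (adjusted p 5.93e-05). StCDPK4 had -0.57, 0.12 and -0.02, and was lower in heat by 0.69 than in cold (adjusted p 6.52e-06) and by 0.55 than in salt (adjusted p 0.000675). VPE2 had -1.94, -0.90 and -0.37, and heat was below cold by 1.04 (adjusted p 0.035) and below salt by 1.57 (adjusted p 0.00769). The direct comparisons also called DHAR higher, and PK and Aconitase lower, in heat than in either stress.

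Other genes had differences of the same or the opposite sign under the stresses. These differences subtract the same no-stress arrays, which averaged -0.38 for AMYA1, -0.23 for ARD and -0.40 for dpeP. A rise common to stresses therefore cannot be told apart from low no-stress arrays. Set against 0, the heat arrays were not called for AMYA1 and dpeP (limma adjusted p 0.058 and 0.131). AMYA1 rose by 0.78 in heat, 0.92 in cold and 1.08 in salt, and heat did not differ from either in the direct test (adjusted p 0.659 and 0.382), with differences of -0.13 and -0.30 (SE 0.21). ARD and dpeP rose in heat and in salt (0.72 and 0.82, and 0.62 and 0.70), whereas in cold ARD had -0.15 and dpeP fell by 0.50. FBPase fell by 1.19 in heat and by 2.29 in cold, and the direct test placed heat above cold by 1.10 (adjusted p 0.0016). The phosphorylase gene glgP was at 0.15 in heat and fell by 1.36 in cold, a direct difference of 1.51.

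The widest contrasts among named genes were in genes without a call at 9 h of heat. CO was called lower in roots at 3 h and 27 h of heat, with -1.33 and -1.32, and RSI5 at 3 h, with -1.12. No difference between times passed for either gene. At 9 h CO had -0.11 in heat and 4.67 in cold, and StP2C had 0.02 and 3.89. RSI5 had -0.36 in heat, 3.16 in cold and 2.08 in salt. The direct differences were -4.78, -3.88 and -3.52 against cold, and -2.44 for RSI5 against salt, all called. ChtA1 and the UDP-glucose epimerase STUGE45 were lower in heat than in salt, with direct differences of -2.95 and -1.79. STUGE45 was also called lower in heat than in cold, with -1.77, and could not be tested against no stress at 9 h. cab1 was above its cold value by 2.22, with the DHAR2 clone of larger difference above cold by 1.57 and above salt by 0.96.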

How the data were processed

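The authors' deposited series table holds log2 ratios, 1 per spot and array, already processed. Background correction, normalization and spot filter were not given in the sources used here, so signal over background is unknown, and for arrays their number limits the precision. Array medians were 0 on the 6 arrays. Over pairs of the 72 arrays the correlation went down to -0.334. The direction of the ratio stays likely, read from the dyes stated in the labels. A planned check on heat-shock protein genes was void, as was the naming of locus-number genes by product and a motif search in promoters, because no product names or sequences were given.

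Both spots of a clone were averaged. The layout was inferred from the spot order: 905 of 905 annotated pairs carried the same accession, and the median correlation of paired spots over arrays was 0.931 for annotated and 0.80 for other clones, against 0.000878 for random pairs. Gene symbols came from the platform annotation, updated through the RefSeq gene table. A clone with several symbols was not named.

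limma 3.58.1 (R 4.3.3) fitted group means over all 36 root arrays, or all 72 for root against leaf, with no block. Tests were two-sided with Benjamini-Hochberg adjusted p under 0.05 over all probes of a comparison. SE is that of the moderated fit. The labels state 3 independent runs but do not say that replicate numbers mark them. Deviations from group means of same-numbered heat and no-stress arrays correlated at 0.208, 0.277 and 0.343, against -0.253 to -0.000922 for different numbers. Deviations within a group cancel out, so these sets of correlations are not independent. The numbers were taken to pair the arrays in an alternative fit with a replicate block. The main fit did not use that pairing. The main fit was tested on simulated data, where 4.03% of calls were false. That simulation held neither the wider spread of heat replicate 1 nor the correlation of same-numbered arrays. It therefore does not give the share of false calls on the real arrays.

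For each named gene the tested probe with the largest difference stood for it. Named were the called genes up to 14 in each direction, up to 2 called members a direction of each of 21 gene lists or else the member with the largest difference, the 2 most changed unannotated clones in each direction, and up to 3 genes a direction in each of 5 tests between effects or stresses. API, matched to antioxidants through a synonym, was moved by hand to the defence list. The members and lists were chosen with earlier results of these data known. Of the tested named probes, 116 belonged to no list. Alternatives were a replicate block, the compared groups alone, array weights, centring, each spot alone, other minimums of values, a robust prior, no control arrays, and each array left out in turn.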

Additional observations from a re-analysis of the deposited data

Results flagged for a closer look

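The difference in heat effect between 9 h and 27 h was called by limma for 3 unannotated clones. Clone 142632 had -0.32 at 9 h and -2.11 at 27 h, a difference of 1.79 (SE 0.27, adjusted p 0.00254). Clone 162580 had -0.25 and -1.93, a difference of 1.68. Clone 148099 had -0.15 at 9 h and 1.38 at 27 h, a difference of -1.53, and 1.09 at 3 h. In none of the 3 was the 9 h effect itself called.

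The difference between root and leaf heat effects at 9 h was called for 2 unannotated clones. Clone 158999 rose by 2.49 in root and 0.92 in leaf, where it was also called (adjusted p 0.0409), a difference of 1.57 (SE 0.31, adjusted p 0.0216). Clone 134181 had 0.58 in root and -0.36 in leaf, a difference of 0.948 (SE 0.18, adjusted p 0.0216).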

How the results depend on the processing

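Of 518 calls at 9 h, the count was 282 on the 6 arrays alone, 1364 with array weights, 1838 (19.4% of 9488) with heat arrays against 0, and 138 to 435 without 1 array. With the replicate block it was 604, and other settings gave 403 to 519. The no-stress arrays against 0 gave 297 of 9063 (3.28%). The 0 calls between 9 h and 3 h became 15 with array weights and 1 on the second spot. The 3 between 9 h and 27 h became 1 on the compared groups, 7 with array weights, 5 on the second spot and 3 to 13 without 1 array. The 2 between root and leaf became 1, 64 and 4 on the compared groups, with array weights and with a value on 1 array, 0 on either spot, and 0 to 6 without 1 array. The 1189 against salt became 2396 with array weights and 673 to 932 without 1 array, and the 3208 against cold 2629 to 2697. Of 24 called named genes, 23 kept their call with the block, the exception being LDH-2. On the compared groups 10 kept it, and 4 did without heat replicate 1. With the heat arrays set against 0, AMYA1, dpeP, SS2, Lea, PKIN1, SRE1A and SGA were not called (limma adjusted p 0.058 to 0.789). Beyond the clones given in the report with their blocked value, the block changed no other call against no stress named there. Signs turned for StP2C (-0.28 on the first spot, -0.14 without heat replicate 3, -0.15 and -0.07 without no-stress replicates 1 and 2, -0.16 against 0; range without 1 array -0.15 to 0.28), CO (-0.23 to 0.016 without 1 array, the highest without heat replicate 1, and 0.12 against 0), ChtA1 (-0.86 to 0.046, the highest without heat replicate 2) and dnaJ (0.035 against 0), and the cause was not tested. Of 147 list medians recomputed, 21 moved by over 1 SD between replicates and 10 changed sign.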

Other observations

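Some clones had values mainly in 1 group and were not tested. On at least 2 heat arrays and at most 1 no-stress array, 582 clones had a value, with a median log2 ratio over the arrays of 0.0427, a range from -1.23 to 2.47, 6 over 1 and 2 under -1. The reverse held for 157 clones, with a median of 0.0795, a range from -0.76 to 0.661 and none beyond 1 in either direction.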
